A study of Macaca mulatta with 6 samples.

Results

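The genes described here are 10 genes of the NRF2 antioxidant response, chosen by symbol: HMOX1, NQO1, GCLC, GCLM, SRXN1, PRDX1, SQSTM1, SLC7A11, OSGIN1 and NFE2L2. All 10 were found in the deposited table, among 24932 genes in all. They account for 21 of its 44605 transcripts, and the values of transcripts that share a symbol were added. RNA was measured in RF/6A, a rhesus macaque cell line labelled as choroidal endothelial, grown to confluence on porous inserts. For 4 hours, 3 control samples received 50% human serum whose complement had been inactivated by heat, and 3 received 50% normal human serum, in which active complement can form the membrane attack complex. All 6 libraries come from the same line, and all received human serum. Complement was not depleted or inhibited by other means in any sample, so the pore, other complement products and anything else that heating changes in serum cannot be told apart. Whether replicates came from separate cultures is not stated in the labels. The p-values therefore cover only library-to-library spread, which could be technical.

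NRF2, the protein made from NFE2L2, is a transcription factor that is kept scarce in resting cells. KEAP1, a sensor rich in reactive cysteines, binds it and presents it to a CUL3 ubiquitin ligase, which marks it for destruction. When oxidants or electrophiles modify KEAP1, NRF2 accumulates, pairs with a small MAF protein and binds antioxidant response elements near genes for glutathione synthesis, peroxide removal and detoxification. BACH1 competes for the same elements. In this pathway the protein of the factor is controlled more than its transcript, and RNA was the only quantity measured here.

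The unit is FPKM, fragments scaled to transcript length and library depth. A pair of control libraries totalled 852828 and 867794 FPKM and the third 1007949, and the normal serum libraries between 980877 and 1016474. On transcripts of at least 300 bases the controls totalled between 775915 and 780423 FPKM, and the third did not stand out (776565). Normal serum libraries totalled between 848315 and 891786 FPKM on these transcripts. In replicates 2 and 3 of both groups, the lowest values were whole multiples of 1 fragment (100% within 0.1 fragments). This placed their depth between 14200000 and 17200000 fragments. The replicate 1 libraries of both groups followed that rule for 55.7% and 48.4% of low values and stood apart on the second principal component. Of 11 endothelial markers found, 4 reached a mean of 1 FPKM, and all 4 were higher in normal serum. Means went from 61.2 to 74.2 FPKM for ENG, 6.58 to 12.2 for FLI1, 3.35 to 7.95 for PECAM1 and 2.63 to 4.91 for ESAM. The summed level of the 11 lay between 73.8 and 75.8 FPKM in the control and between 97.9 and 104 FPKM in normal serum. Most of it came from ENG. The 7 endothelial markers with a mean below 1 FPKM were not tested. Of these, VWF went from 0.172 to 1.05 FPKM and KDR from 0.370 to 0.105 FPKM, each without overlap. CDH5, a defining marker, had a 0 in each control library and no more than 0.0185 FPKM in normal serum. Fibroblast and mural markers were abundant. The summed level of the 11 found lay between 6882 and 7416 FPKM in the control and between 3393 and 3563 FPKM in normal serum, with 8 of 10 tested lower and 2 higher. Of 8 retinal pigment epithelium markers, 7 had a mean below 1 FPKM, and PMEL was at 38.3 and 39.0 FPKM. Of 4 epithelial markers found, 2 were tested. CDH1 fell from 5.54 to 2.03 FPKM and CLDN4 rose from 0.864 to 2.25 FPKM. PTPRC, the pan-leukocyte marker, did not exceed 0.0509 FPKM, but 3 of the 6 leukocyte markers found reached a mean of 1 FPKM. LYZ fell from 7.82 to 5.17 FPKM (limma, adjusted p = 0.032). CD68 (7.32 and 8.62 FPKM) and CD14 (1.45 and 1.10 FPKM) were not past the threshold. The part of these marker changes in the results below was not tested, and in RNA from whole cultures fewer cells of a type and less RNA per cell cannot be told apart.

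A minority of the 10 genes passed the test for a change in normal serum, and not all in one direction. PRDX1, NQO1 and OSGIN1 rose, SQSTM1 fell, and HMOX1, GCLC, GCLM, SRXN1, SLC7A11 and NFE2L2 did not pass the test (limma on log2(FPKM + 1), Benjamini-Hochberg adjusted p under 0.05 over the 11818 genes whose mean reached 1 FPKM). All 10 passed the filter on low values. The share called, 4 of 10, stands beside 54.0% of all genes tested, with 3 of 10 higher beside 27.8% and 1 of 10 lower beside 26.1%. The groups did not overlap for 5 of the 10 genes (the 4 called and SLC7A11), beside 62.6% of all genes. The median log2 change was 0.17 for the 10 genes and 0.01 for all genes tested. These shares do not set the 10 genes above the rest of the table.

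**Figure D1:**
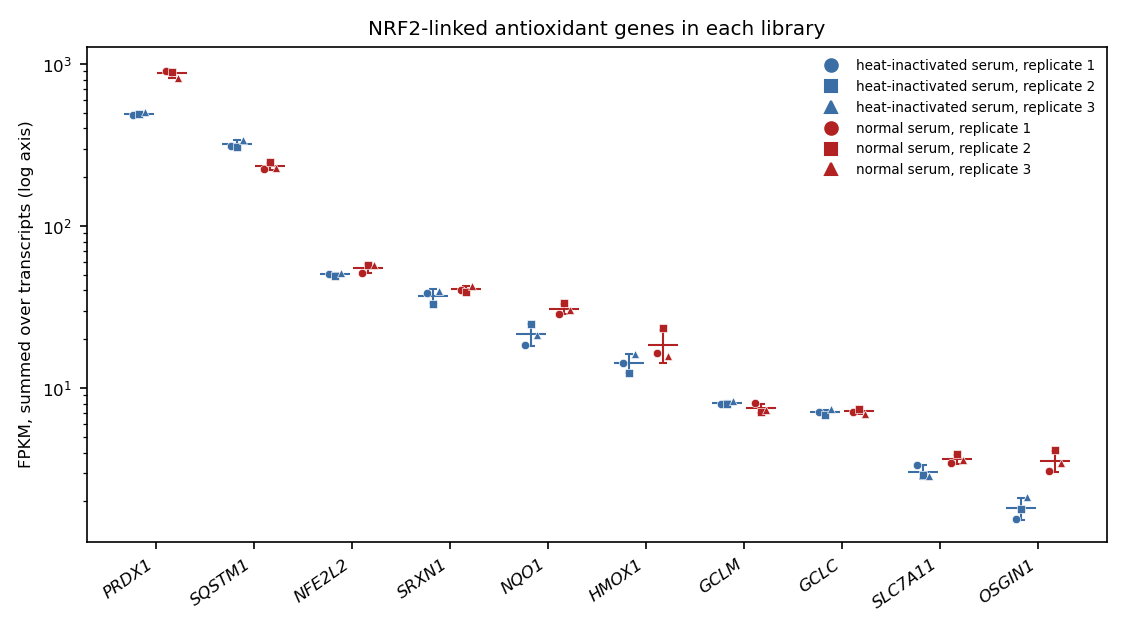
FPKM of each of the 10 genes (log axis) in each library, blue for heat-inactivated and red for normal serum, with 1 marker shape per replicate number and bars for the mean and SD of 3 libraries. PRDX1, at 493 and 872 FPKM, is the highest gene in both groups, and OSGIN1, at 1.82 and 3.56 FPKM, the lowest.

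**Figure D2:**
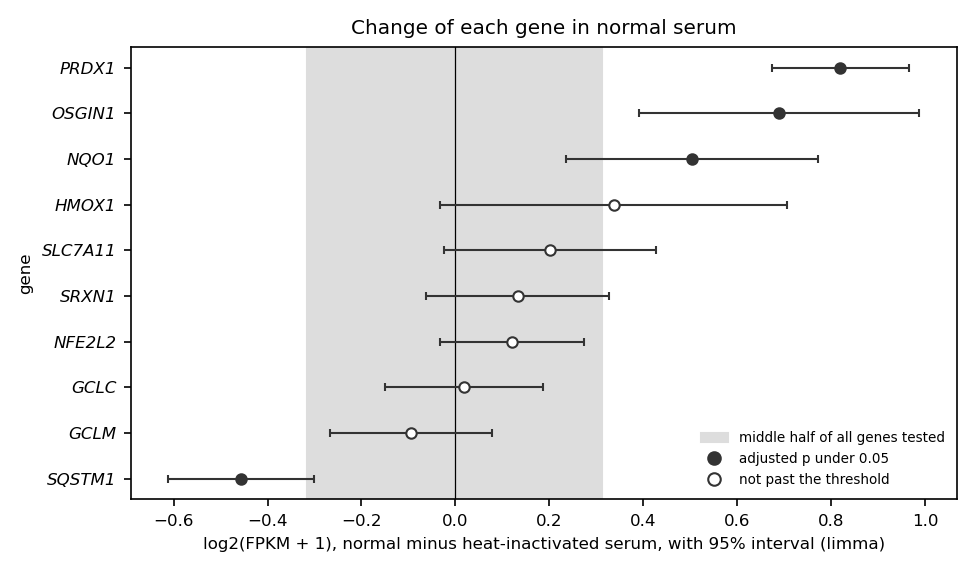
Difference in log2(FPKM + 1) between normal and heat-inactivated serum for each gene (points) with its 95% interval from limma, filled where the adjusted p was under 0.05. The grey band is the interquartile range of all genes tested, from -0.32 to 0.31. The 4 called genes lie outside it, as does HMOX1, which was not called.

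Of the peroxide enzymes, PRDX1 rose and SRXN1 did not pass the test. PRDX1, which encodes an abundant cytosolic peroxiredoxin that reduces hydrogen peroxide, stood at 481, 492 and 505 FPKM in the control libraries and at 907, 894 and 814 FPKM in normal serum. Every normal serum library lay far above every control library. The mean rose 1.77-fold, from 493 ± 12.1 to 872 ± 50.7 FPKM (SD, n = 3), with a log2 change of 0.82 ± 0.06 (SE; limma, adjusted p = 5.9e-05), higher than that of 94.1% of genes tested. SRXN1, encoding the sulfiredoxin that restores peroxiredoxins after overoxidation, was at 38.4, 33.0 and 39.9 FPKM in the control and at 40.2, 39.1 and 42.7 FPKM in normal serum. These groups overlapped, and the log2 change of 0.13 was not past the threshold (95% interval -0.06 to 0.33; limma, adjusted p = 0.218). Within a library PRDX1 therefore stood at 12.5, 14.9 and 12.7 times SRXN1 in the control and at 22.6, 22.9 and 19.0 times in normal serum. The ratios did not overlap, but with 3 libraries against 3 the two-sided exact permutation p of 0.1 is the smallest the design allows, and it was 0.4 adjusted over the 4 ratios computed.

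Other superoxide and peroxide enzymes also moved both ways. Of 17 listed genes 14 were tested, 5 were higher and 3 lower (57.1%, beside 54.0% of all genes), with a median log2 change of 0.06. PRDX6, a peroxiredoxin that also acts on phospholipid peroxides, rose 1.91-fold, from 504 ± 38.7 to 961 ± 31.2 FPKM, a level like that of PRDX1. MSRA, which repairs oxidised methionine, rose 1.53-fold. MSRB3, another methionine sulfoxide reductase, fell from 34.4 ± 0.587 to 26.0 ± 1.72 FPKM, and SESN3, of the sestrin family, from 11.8 ± 0.497 to 7.37 ± 1.24 FPKM. SOD2, PRDX5 and MSRB2, of this list and named after their values were seen, were listed at 0 in all 6 libraries and not tested in the authors' deposited table, so no absence is read from the 0. With the libraries rescaled to the same total FPKM this list had 4 higher and 4 lower.

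Neither subunit of the enzyme that starts glutathione synthesis passed the test. GCLC, the catalytic subunit of glutamate-cysteine ligase, which makes the rate-limiting step, was at 7.07, 6.78 and 7.37 FPKM in the control and at 7.14, 7.44 and 6.94 FPKM in normal serum. GCLM, its modifier subunit, was at 7.99, 7.98 and 8.28 FPKM in the control and at 8.07, 7.16 and 7.32 FPKM in normal serum. Both genes overlapped between the groups. The log2 change was 0.02 for GCLC (95% interval -0.15 to 0.19; limma, adjusted p = 0.85) and -0.09 for GCLM (95% interval -0.27 to 0.08; limma, adjusted p = 0.306), so changes beyond those bounds lie outside the intervals. The GCLM to GCLC ratio was 1.13, 1.18 and 1.12 in the control and 1.13, 0.962 and 1.05 in normal serum, and these overlapped (two-sided exact permutation p = 0.2, adjusted p = 0.4). GCLM became a call, lower by 0.25 on the log2 scale, only when the libraries were brought to the same total FPKM of transcripts of at least 300 bases (limma, adjusted p = 0.0273).

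SLC7A11 encodes the cystine-glutamate exchanger that brings in the cysteine of glutathione. It stood at 3.37, 2.91 and 2.85 FPKM in the control and at 3.44, 3.90 and 3.60 FPKM in normal serum. The groups just failed to touch. The mean was 1.20 times the control mean, and the log2 change of 0.20 was not past the threshold (95% interval -0.02 to 0.43; limma, adjusted p = 0.114) except after quantile normalization, where it was 0.34 (limma, adjusted p = 0.0231). The gene rests on between 91 and 140 fragments in each of replicates 2 and 3. SLC3A2, the heavy chain that carries the exchanger to the membrane, rose 1.15-fold, from 134 ± 2.57 to 154 ± 1.60 FPKM (limma, adjusted p = 0.0108), a call lost (adjusted p = 0.598) once libraries were rescaled to equal total FPKM. The ratio of SLC7A11 to SLC3A2 was between 0.0209 and 0.0253 in the control and between 0.0221 and 0.0256 in normal serum (two-sided exact permutation p = 0.6, adjusted p = 0.8).

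Among 18 tested genes of the supply and use of glutathione, 8 were higher and 5 lower (72.2%, beside 54.0% of all genes), and the median log2 change was 0.19. GLRX2 and GLRX3, glutaredoxin genes whose proteins use or bind glutathione, rose 2.15-fold and 1.60-fold. Of the other glutaredoxin genes listed, GLRX5 rose 1.56-fold and GLRX fell to 0.737 of its control mean (limma, adjusted p = 0.00845). OPLAH, the enzyme that returns 5-oxoproline to glutamate, rose 2.05-fold, from 8.05 ± 0.687 to 16.5 ± 2.08 FPKM. CHAC1, which degrades glutathione, fell to 0.576 of its control mean, from 24.4 ± 0.620 to 14.1 ± 0.747 FPKM. Rescaling to the same total FPKM gave 6 higher and 6 lower in this list, and quantile normalization 7 and 7.

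Of the classical detoxification genes, NQO1 rose and HMOX1 did not pass the test. NQO1, a quinone reductase, stood at 18.3, 25.0 and 21.4 FPKM in the control and at 28.7, 33.3 and 30.4 FPKM in normal serum. The groups did not overlap, although the control libraries were spread. The mean rose 1.43-fold, from 21.6 ± 3.33 to 30.8 ± 2.34 FPKM, with a log2 change of 0.50 ± 0.11 (SE; limma, adjusted p = 0.00788). HMOX1, the inducible heme oxygenase, stood at 14.3, 12.4 and 16.3 FPKM in the control and at 16.4, 23.4 and 15.8 FPKM in normal serum. Replicate 2 of normal serum stood apart, and the other two lay at the level of the highest control library. The log2 change was 0.34 (95% interval -0.03 to 0.71; limma, adjusted p = 0.109), and 0.17 without that library (adjusted p = 0.285). The authors' deposited table, which tests transcripts one by one, gives the main HMOX1 transcript a log2 fold change of 0.37 and a q-value of 0.00187.

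Genes of heme and iron handling moved in both directions. Of 14 tested, 4 were higher and 5 lower (64.3%, beside 54.0% of all genes), and the median log2 change was -0.16. ALAS1, the first enzyme of heme synthesis, rose from 41.0 ± 0.688 to 69.6 ± 3.82 FPKM, while FECH, the last enzyme, fell from 5.27 ± 0.269 to 2.04 ± 0.165 FPKM. SLC40A1, the iron exporter ferroportin, fell to 0.406 of its control mean, and ACO1, which doubles as an iron-responsive RNA-binding protein, to 0.695. Rescaled to the same total FPKM this list had 1 higher and 7 lower, and with quantile normalization 2 and 6.

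SQSTM1 was the only one of the 10 called lower with the values as deposited. It encodes p62, a receptor that brings ubiquitinated cargo to autophagosomes and that also binds KEAP1. It stood at 313, 308 and 341 FPKM in the control and at 225, 247 and 228 FPKM in normal serum. The groups were clearly apart. The mean fell to 0.728 of the control mean, from 321 ± 17.8 to 234 ± 12.2 FPKM, with a log2 change of -0.46 ± 0.07 (SE; limma, adjusted p = 0.00104), and of -0.71 with quantile normalization. Only 16.6% of genes tested had a change as low or lower.

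Selective autophagy genes showed a similar mixture. Of 21 tested, 6 were higher and 5 lower (52.4%, beside 54.0% of all genes), with a median log2 change of 0.06. The receptors CALCOCO2, which recognises damaged vacuoles and bacteria, and NBR1, a relative of p62, fell to 0.384 and 0.657 of their control means, the first from 25.8 ± 1.79 to 9.88 ± 0.960 FPKM. WIPI1, a phosphoinositide-binding autophagy protein, fell to 0.622 of its control mean. ATG12, of the conjugation system that builds the autophagosome, rose 1.47-fold. Rescaled to the same total FPKM this list had 3 higher and 8 lower, and with quantile normalization 5 and 7.

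OSGIN1, an oxidative stress responsive regulator of growth and cell death, had the lowest level and the largest fold of the 10. It stood at 1.56, 1.79 and 2.12 FPKM in the control and at 3.09, 4.14 and 3.44 FPKM in normal serum. All normal serum libraries lay above all controls. The mean rose 1.95-fold, from 1.82 ± 0.281 to 3.56 ± 0.534 FPKM, with a log2 change of 0.69 ± 0.13 (SE; limma, adjusted p = 0.00314), which understates a low gene. It rests on between 51 and 104 fragments in each of replicates 2 and 3, and OSGIN1 was not among the genes tested when a mean of at least 5 FPKM was required.

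NFE2L2, the gene of the factor itself, did not pass the test. It stood at 50.8, 49.3 and 51.4 FPKM in the control and at 50.9, 57.1 and 57.0 FPKM in normal serum. Replicate 1 of normal serum lay among the controls and the other two above them. The log2 change was 0.12 (95% interval -0.03 to 0.27; limma, adjusted p = 0.159). KEAP1, its inhibitor, was at 34.3 ± 2.90 and 37.4 ± 2.03 FPKM (limma, adjusted p = 0.235). The ratio of NFE2L2 to KEAP1 lay between 1.37 and 1.64 in the control and between 1.28 and 1.60 in normal serum (two-sided exact permutation p = 1).

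Of 14 tested regulators and partners of NRF2, 6 were higher and 1 lower, and the share called, 50.0%, was below the 54.0% of all genes, with a median log2 change of 0.18. MAFF, a small MAF protein, rose 3.14-fold, from 21.8 ± 4.09 to 68.4 ± 2.55 FPKM, and MAFK, another, 1.68-fold, from 30.9 ± 3.26 to 51.9 ± 6.73 FPKM. BACH1, the repressor of antioxidant response elements, rose 1.29-fold (limma, adjusted p = 0.00558). NFE2L1, a relative of NRF2 that controls proteasome genes, fell from 141 ± 10.1 to 75.4 ± 4.26 FPKM. Rescaling to the same total FPKM ended the BACH1 call (log2 0.21, adjusted p = 0.126) and gave 2 higher and 1 lower in this list, while MAFF, MAFK and NFE2L1 were still called.

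Other known NRF2 targets split evenly between directions. Of 30 listed genes 26 were found and 20 tested, of which 8 were higher and 8 lower (80.0%, beside 54.0% of all genes), with a median log2 change of 0.14. UGDH, which makes the UDP-glucuronate used in conjugation, rose 2.96-fold, from 34.7 ± 1.92 to 102 ± 1.50 FPKM, and AKR1B1, aldose reductase, 2.46-fold. TXN, the thioredoxin that recycles peroxiredoxins, rose from 542 ± 24.1 to 890 ± 71.3 FPKM (log2 0.71, or 0.46 with quantile normalization). IDH1, a cytosolic source of NADPH, fell from 68.3 ± 3.58 to 36.7 ± 2.87 FPKM. TXNRD1, thioredoxin reductase and named after its values were seen, was listed at 0 in all 6 libraries for each of its transcripts. None of these was tested in the authors' deposited table, so no absence is read from the 0. The share of higher and lower calls moved by less than 10 percentage points under each scaling tried.

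**Figure D3:**
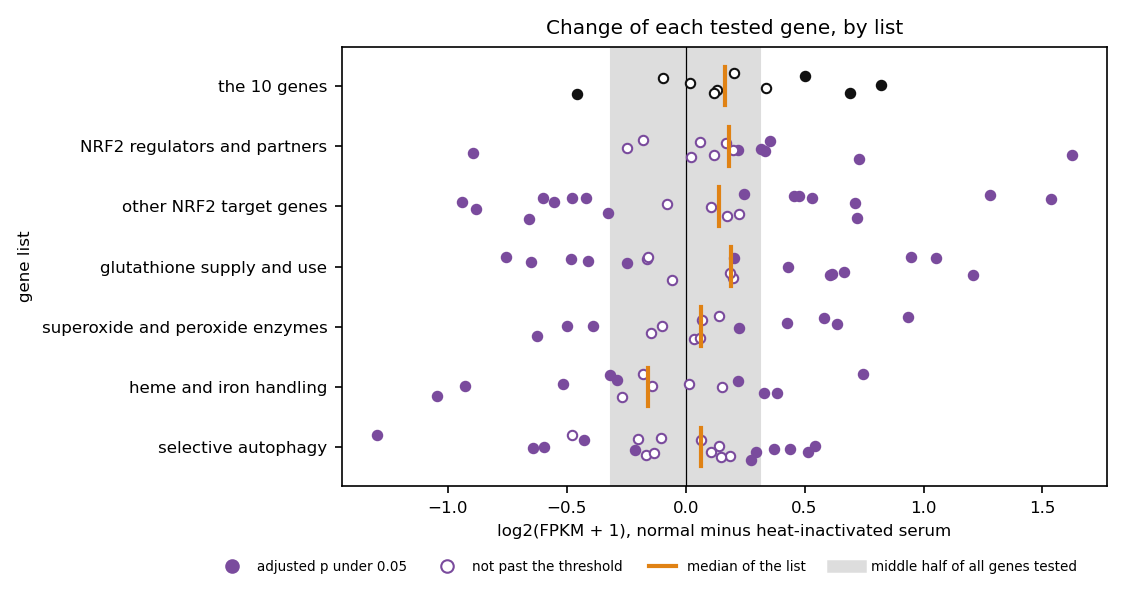
Difference in log2(FPKM + 1) between normal and heat-inactivated serum for every tested gene of the 10 (black) and of 6 related lists (purple), filled where the adjusted p was under 0.05, with the list's median in orange and the interquartile range of all genes tested in grey. Medians lie between -0.16 and 0.19, and each list holds calls on both sides of 0.

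The sums hide how single transcripts behaved. Of the 10 genes, 5 have 1 transcript in the table. Of the 21 transcripts, 2 were listed at 0 in all libraries and 14 reached a mean of 1 FPKM and were tested, of which 3 were higher and 2 lower (limma over 15719 transcripts). Of all transcripts tested 39.6% were called, 21.0% higher and 18.6% lower.

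The fall of SQSTM1 was shared by its main transcripts. The one of 2070 bases, with between 75.7% and 80.3% of the gene's FPKM, went from 245 ± 15.6 to 184 ± 12.9 FPKM (limma, adjusted p = 0.00662), and the one of 1323 bases from 73.0 ± 1.67 to 46.9 ± 2.32 FPKM (limma, adjusted p = 6.32e-04). NQO1 and OSGIN1 each rose through 1 main transcript. For NQO1 the transcript of 1069 bases held between 93.6% and 97.3% of the gene, and for OSGIN1 that of 1914 bases held between 73.7% and 100% (limma, adjusted p = 0.0247 and 0.00986).

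The NFE2L2 transcripts had means on different sides of the control, and none passed the test. The one of 2406 bases was at 34.1, 39.3 and 32.6 FPKM in the control and at 24.6, 27.8 and 33.7 FPKM in normal serum. The one of 2275 bases was at 10.1, 2.62 and 15.2 FPKM in the control and at 22.4, 19.8 and 15.8 FPKM in normal serum. The longer one overlapped between groups and was lower on average, and the shorter one was higher in every normal serum library, though by little in replicate 3. Their log2 changes were -0.30 and 1.22 (limma, adjusted p = 0.119 and 0.12). The share of the gene assigned to the 2275-base transcript was 20.0%, 5.3% and 29.5% in the control and 44.0%, 34.7% and 27.7% in normal serum, and these shares overlapped.

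**Figure D4:**
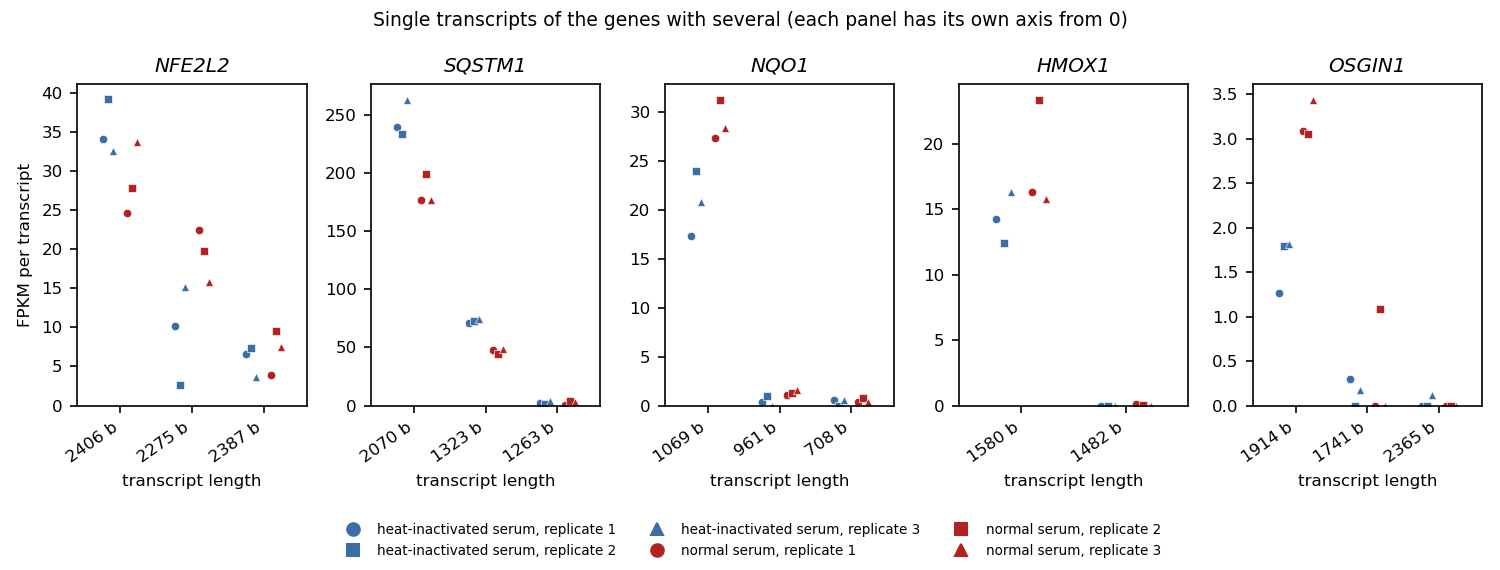
FPKM of single transcripts in each library for the 5 genes with several, in panels with separate linear axes from 0. Transcripts are named by length in bases, and the 2 listed at 0 in all libraries are left out. Both main SQSTM1 transcripts are lower in normal serum, while the mean of the NFE2L2 transcript of 2406 bases is lower and that of 2275 bases higher, neither past the threshold.

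Ordered by FPKM, the control libraries ran PRDX1 (493), SQSTM1 (321), NFE2L2 (50.5), SRXN1 (37.1), NQO1 (21.6), HMOX1 (14.3), GCLM (8.09), GCLC (7.07), SLC7A11 (3.04) and OSGIN1 (1.82 FPKM). Neighbours in this order did not overlap in the control. The order was the same in normal serum, where GCLM (7.52) and GCLC (7.17 FPKM) overlapped, as did SLC7A11 (3.65) and OSGIN1 (3.56 FPKM). Levels per length depend on the transcript models, and SRXN1 has the shortest, of 414 bases.

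The scaling between libraries bears on the small changes. Rescaling to the same total FPKM moved the median log2 change of all genes from 0.01 to -0.12, and rescaling on transcripts of at least 300 bases to -0.14, with 34.7% and 33.0% of calls higher in place of 51.6%. PRDX1, NQO1, OSGIN1 and SQSTM1 kept their call and direction under both and under quantile normalization. GCLC, SRXN1 and NFE2L2 changed sign under one scaling or more and were not called under any. Among the 10 genes, quantile normalization gave 4 higher and 1 lower, and the rescaling on transcripts of at least 300 bases gave 3 higher and 2 lower.

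**Figure D5:**
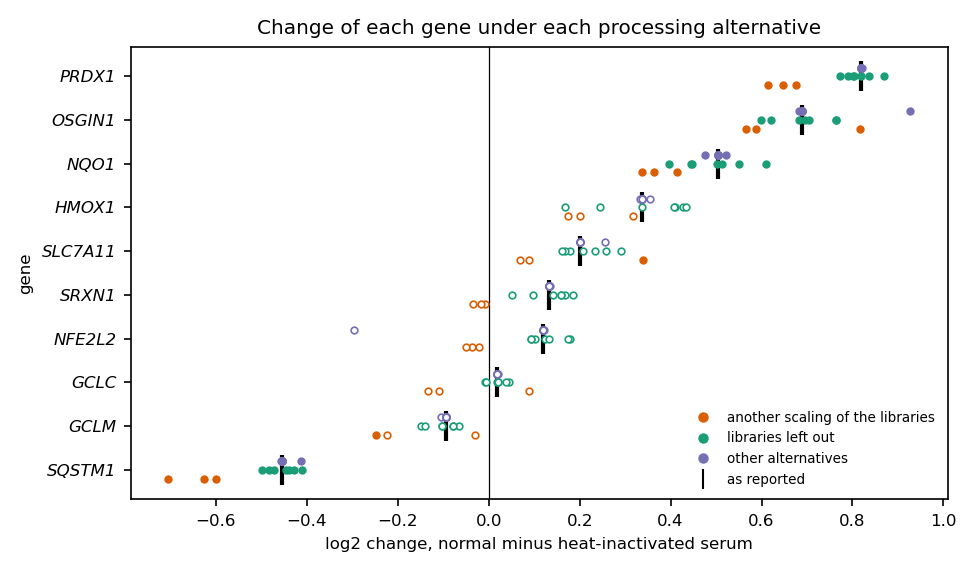
Log2 change of each of the 10 genes under each processing alternative (orange for scalings, green for libraries left out, purple for others; filled where the adjusted p was under 0.05) and as reported (black bars). PRDX1, OSGIN1, NQO1 and SQSTM1 stay on one side of 0, and GCLC, NFE2L2 and SRXN1 cross it.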

How the data were processed

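The authors deposited, for each transcript, the FPKM in each of 6 libraries and in each treatment, with a log2 fold change, its p-value and a q-value. The submitters' processing notes list TopHat2 2.0.7, Cufflinks 2.1.1 and Cuffdiff 2.1.1. The genome build and the handling of near-identical copies are not given in the sources used here. FPKM was summed by symbol. A name table supplied symbols for 256 of 7008 gene identifiers that lacked one, and 124 of 129 pathway list genes were found. FPKM are not counts, so limma 3.58.1 (R 4.3.3, trended variance) was applied to log2(FPKM + 1) where the mean reached 1 FPKM, with Benjamini-Hochberg adjustment over all genes or transcripts. Ratios were tested by exact permutation in SciPy 1.17.1. Depth was read from the lowest values of single-transcript genes.

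The 10 genes and the lists were chosen with earlier results of these data known. Besides the 10, the genes named are KEAP1, SLC3A2 and, per list, up to 4 called genes ranked by adjusted p. The cell type markers named are ENG, FLI1, PECAM1, ESAM, CDH5 and PTPRC. VWF, KDR, PMEL, CDH1, CLDN4, LYZ, CD68 and CD14 were added after their values were seen. SOD2, PRDX5, MSRB2, TXNRD1, GLRX, GLRX5, PGD, ME1, TKT and TALDO1 were named after their values were seen. Alternatives varied the pseudocount (0.1), filter, scaling, variance model, transcript summing, replicate terms and libraries included. The rescaling on transcripts of at least 300 bases was chosen after seeing the data. No sequences of these genes were used here.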

Additional observations from a re-analysis of the deposited data

How the results depend on the processing

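PRDX1, OSGIN1, NQO1 and SQSTM1 kept direction and call under every alternative in which they were tested, with log2 changes from 0.61 to 0.87, 0.57 to 0.93, 0.34 to 0.61 and -0.71 to -0.41. Over all genes, between 5166 and 7063 were called. Called regulators numbered 3 after rescaling to the same total FPKM and 4 after rescaling on transcripts of at least 300 bases, in place of 7. The first rescaling reversed GCLC (-0.109), SRXN1 (-0.00878), NFE2L2 (-0.0220) and KEAP1 (-0.0207), and the second gave -0.133, -0.0357, -0.0491 and -0.0473 for them. Quantile normalization reversed SRXN1 (-0.0176), NFE2L2 (-0.0362), KEAP1 (-0.0227) and SLC3A2 (-0.0161), and the highest transcript alone NFE2L2 (-0.296). None of these reversed values was a call, and beyond the scaling itself the cause was not tested. Leaving out 1 library at a time, GCLC ranged from -0.00883 to 0.0445, the log2 difference of SLC7A11 to SLC3A2 from -0.00449 to 0.134, and that of NFE2L2 to KEAP1 from -0.0601 to 0.0969. Depth limits OSGIN1 and SLC7A11 most.

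With the replicate number as a block, 6775 genes were called in place of 6381, and the 10 genes again had 4 calls. Deviations of same-numbered libraries correlated at 0.193, 0.0333 and 0.00593. Of the same-numbered libraries, only those of replicate 1 correlated best with each other both ways. Control replicate 3 and normal serum replicate 2 (0.106) were also each other's best match. So were control replicate 2 and normal serum replicate 3 (0.0861). The numbers 2 and 3 were not taken as pairs. A term for replicate 1 alone gave 7063 genes, 9 regulators and 15 autophagy genes in place of 6381, 7 and 11, and replicates 2 and 3 alone gave 5555, 6 and 10. The 10 genes had 4 calls under both.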

Other observations

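Several genes linked to the supply of NADPH, the electron donor for glutathione and thioredoxin reduction, were looked at after their values were seen. PGD, the phosphogluconate dehydrogenase gene, rose from 38.6 ± 0.608 to 45.9 ± 0.860 FPKM, and the malic enzyme gene ME1 from 16.5 ± 0.774 to 23.3 ± 1.52 FPKM (limma, adjusted p = 0.00643 and 0.00126). IDH1 fell, as given above. TKT and TALDO1, of the non-oxidative pentose phosphate branch, were not past the threshold (adjusted p = 0.184 and 0.0698).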
